A study of Mus musculus with 2 samples.

Results

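The B cells of the normal mammary gland were 594 of the 1806 cells deposited for the library labelled Normal Endothelial Cells (NEC). That is 32.9% of these deposited cells (exact binomial 95% interval 30.7 to 35.1), and the deposited table held 2806 cells in all. A cell was taken as a B cell when it held at least 2 UMIs (unique molecular identifiers, the tags that count captured RNA molecules) of Cd79a, Cd79b and Ms4a1 together, 0 UMIs of Cd3e, Cd3d and Cd3g, and at most 1 UMI of Csf1r, C1qa, C1qb and C1qc. Cd79a and Cd79b encode the signalling chains of the B-cell receptor and Ms4a1 encodes CD20; the Cd3 genes belong to T cells and the last group to macrophages. Since these counts chose the cells, they are given as a description.

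The study compared endothelial cells of normal mammary gland and of EO771 tumors (TEC), a mouse mammary tumor line, by droplet sequencing of RNA 3' ends (10x Genomics), with 1 library per group. The mice were female C57BL6/J, 8 weeks old, and were Cdh5Cre-ERT2:ZSGreenl/s/l, a reporter design in which tamoxifen switches on ZSGreen where the endothelial Cdh5 promoter is active. Per the labels, EO771 cells were placed in the mammary fat pad, tumors grew for about 3 weeks, no treatment was given, and live ZSGreen-positive cells were sorted from tumors or from normal glands. The labels give no number of animals, and they do not say whether the normal glands came from mice that also bore a tumor. With 1 library there is no replicate check, so no p-value is given, and all intervals are 95% intervals that cover counting error only.

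B cells make antibodies and present antigen. They recognise antigen through a surface immunoglobulin that signals through the CD79 chains, co-receptors that strengthen the signal, and inhibitory partners such as CD22 and CD72 that weaken it. They take up bound antigen and show it to helper T cells on MHC class II. Resting B cells circulate between blood, lymphoid organs and tissues, and they depend on the cytokine BAFF for survival.

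The label B cell was checked against 5 markers, of which 3 belong to the rule. Ebf1, a transcription factor that specifies the B lineage, stood at 1370 CPM (UMIs per 1000000 UMIs of the group; 1305 to 1436) in the B cells, 6.995 CPM in 534 T cells and 0 CPM in 85 macrophages of the same library. Fcmr, the Fc receptor for IgM, stood at 336 CPM (304.5 to 370.1) in the B cells, 1.17 CPM in T cells and 0 CPM in macrophages. The T cells held at least 2 Cd3 UMIs and at most 1 UMI of the macrophage genes, the macrophages at least 4 UMIs of the macrophage genes and no Cd3 UMI, and neither held a UMI of Cd79a, Cd79b or Ms4a1. The constant genes of immunoglobulin were not analysed here, so class and light chain are not described.

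Endothelial genes, which the sort was meant to select, were near 0 in these cells. Of 9 endothelial markers in the table, 6 had 0 UMIs in the B cells, among them Cdh5, the gene whose promoter drives the Cre, and Kdr, a receptor for VEGF. The interval for a count of 0 reaches 2.99 CPM. The summed level of the 9 was 38.2 CPM in B cells and 35.5 CPM in the other NEC cells. Pecam1, which leukocytes also express, supplied 36.5 CPM of the former sum. Endothelial genes were thus as low in the rest of the deposited NEC cells, although the sort was for endothelial cells. The share of B cells is therefore a share of the deposited cells, and it may differ from their share of all sorted cells.

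The B cells were shallow. They held 1157 UMIs in the lowest cell, 1771.5 in the median cell and 9498 in the highest, while the median was 2826 UMIs in the 1212 other NEC cells, 3007.5 in T cells and 2815 in macrophages. B cells were therefore 32.9% of the cells but 23.6% of the UMIs. Their share also moved with the depth asked of a cell: B cells were 18.4% of the 1067 NEC cells with at least 2000 UMIs and 7.78% of the 347 with at least 4000 UMIs. The median B cell showed 688.5 genes, against 917.5 in the other NEC cells. Mitochondrial transcripts took 3.68% of the UMIs of the median B cell and 2.97% of those of the median other cell, and Malat1, a nuclear RNA, 4.48% and 2.93%.

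**Figure D1:**
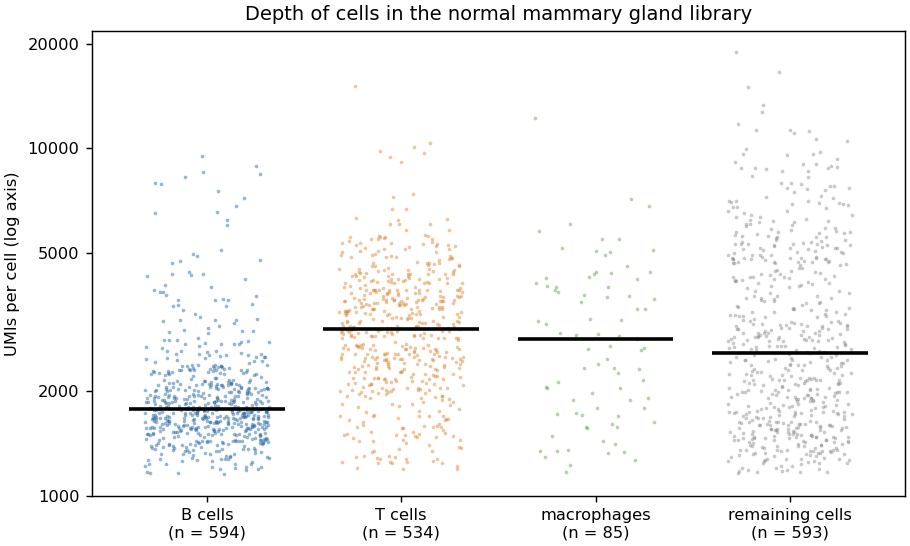
UMIs per cell (log axis) for the 594 B cells, 534 T cells, 85 macrophages and 593 remaining cells of the NEC library; each point is a cell and the black line is the median. The median B cell lies at 1771.5 UMIs and the median T cell at 3007.5.

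The rule genes varied around low counts. The sum of Cd79a, Cd79b and Ms4a1 was 2 UMIs in the lowest B cell, 5 in the median and 44 in the highest; for Cd79a alone these values were 0, 3 and 26. Just inside the threshold, 81 cells with a sum of 2 had Ebf1 at 1459 CPM and H2-DMb2, a class II chaperone chain, at 1038 CPM. Just outside it, 59 cells with a sum of 1 had Ebf1 at 1172 CPM and H2-DMb2 at 578 CPM, whereas 359 cells with a sum of 0 that met the other conditions had 149 and 97.0 CPM. The cells just outside thus held most of the B-cell signal of those just inside, and they count among the other NEC cells in every comparison that follows. Of the 618 NEC cells with a sum of at least 2, 23 held a Cd3 UMI and 1 held more than 1 macrophage UMI, and these were left out.

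Cells of other types seldom held a UMI of the rule genes. A UMI of Cd79a, Cd79b or Ms4a1 was found in 21 of 555 T cells chosen without regard to those genes (3.78%) and in 7 of 92 macrophages chosen in the same way (7.61%). After every cell was thinned to 1000 UMIs, Cd79a was found in 83.0% of B cells, 1.62% of these T cells and 2.17% of these macrophages. Their median depths before thinning were 3019 and 2866.5 UMIs. All shares of cells below are after this thinning unless stated, for which no cell had to be left out.

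UMIs were summed over the B cells and over the other NEC cells, and a gene was called higher or lower when its CPM ratio was at least 2 in that direction and the counting interval excluded 1. Of 6592 genes with at least 50 UMIs in the library, 542 were higher in B cells (8.22%), 1283 lower (19.5%) and 72.3% neither, and the median log2 ratio was -0.04. Against T cells, 805 of 6558 genes were higher (12.3%), 667 lower (10.2%) and 77.6% neither. Against macrophages, 1032 of 6525 were higher (15.8%), 1093 lower (16.8%) and 67.4% neither. The cells were chosen by B-cell genes, so these ratios describe the cells and do not test their identity. The sizes of the ratios to the other NEC cells also rest on which cells count as other. Against the 1103 with no UMI of the rule's B-cell genes, Fcmr was 82.2-fold higher, where the ratio over all 1212 was 24.9, and H2-DMb2 23.8-fold, where it was 14.1.

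Partners of the B-cell receptor were mostly higher in B cells. Of 13 compared genes outside the rule, 8 were higher in B cells, 1 was lower and 4 were neither (median log2 ratio 3.06). All genes compared gave 8.22% higher and 19.5% lower. Against T cells all 13 were higher, where all genes had 12.3% higher. Against macrophages 9 were higher and 4 lower, beside 15.8% and 16.8% over all genes. Cd22, an inhibitory lectin receptor (chromosome 7, 30865404 to 30880342), stood at 52.8 CPM (40.7 to 67.3) in B cells and 0.751 CPM in the other cells, a ratio of 70.3 (23.0 to 350), with 0 UMIs in both T cells and macrophages. Cr2, a complement receptor, stood at 41.4 CPM against 1.501 CPM (27.6-fold, 11.8 to 78.6). It was thinly sampled, being found in 4.38% of B cells (7.41% before thinning) and 0% of T cells. The interval for a count of 0 reaches 0.662% of these T cells and 3.93% of the macrophages.

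The other partners split between genes held by B cells and genes that macrophages share. Fcrla, an intracellular Fc receptor-like protein, stood at 283 CPM in B cells, 0.583 in T cells and 3.77 in macrophages. Cd72, a further inhibitory receptor, stood at 177 CPM, 5.25 and 0 in the same order, and Siglecg, an inhibitory sialic acid receptor, at 87.7, 0.583 and 3.77. Fcgr2b, the inhibitory Fc receptor for IgG, stood at 89.3 CPM in B cells and 241 CPM in macrophages, and Cd81, a tetraspanin, at 127 and 305 CPM. The 1 gene called lower was Lilrb4a, a myeloid inhibitory receptor, at 12.2 CPM in B cells and 177 CPM in macrophages.

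Of 19 genes that carry the receptor signal, 13 were higher in B cells and 0 lower (median log2 ratio 1.195). The shares over all genes were 8.22% and 19.5%. Against T cells 14 were higher and 0 lower, where all genes had 12.3% and 10.2%. Bank1, a scaffold of B-cell receptor signalling, was 20.1-fold higher (14.4 to 28.7), at 206 CPM against 10.3 CPM. Blk, a Src-family kinase of B cells, was 11.97-fold higher (7.88 to 18.7) and Btk, the kinase whose loss blocks B-cell development, 8.84-fold (5.71 to 14.03). Kinases and adaptors that myeloid cells also use differed less: Lyn was 2.99-fold higher, Syk 2.24-fold and Blnk 3.96-fold. Blnk stood at 153 CPM in B cells and 173 CPM in macrophages, and that ratio of 0.886 (0.639 to 1.25) met the rule in neither direction.

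Of 17 transcription factors, 11 were higher in B cells and 0 lower (median log2 ratio 1.21). The shares over all genes were 8.22% higher and 19.5% lower. Ebf1 was 12.6-fold higher than in the other NEC cells (11.3 to 13.98), and Pax5, which holds cells in the B lineage, 18.1-fold (11.3 to 30.3), at 94.98 CPM against 5.25 CPM. Mef2c, a factor used by B cells and by myeloid cells, stood at 810 CPM in B cells, 0.583 CPM in T cells and 90.4 CPM in macrophages. Spib, an Ets factor, and Pou2af1, the octamer coactivator OBF1, were 6.99-fold (5.08 to 9.72) and 9.97-fold (6.96 to 14.6) higher. Spi1, which encodes PU.1, stood at 94.98 CPM in B cells, 2.91 CPM in T cells and 211 CPM in macrophages. Klf2, a factor of quiescent recirculating lymphocytes, stood at 849 CPM in B cells and 1022 CPM in T cells, a ratio of 0.831 (0.769 to 0.897) that met the rule in neither direction.

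The classical class II genes differed little in level between B cells and macrophages. Of 13 compared genes of the class II and antigen presentation list, 10 were higher in B cells than in the other NEC cells and 0 lower (median log2 ratio 1.95). All genes had 8.22% higher and 19.5% lower. The median of the list was 5.07 against T cells and 0.14 against macrophages, beside 0.04 and 0.19 over all genes compared. Cd74, the invariant chain, stood at 18287 CPM (18049 to 18528) in B cells, 159.7 CPM in T cells and 16588 CPM in macrophages, a B-cell to macrophage ratio of 1.10 (1.07 to 1.14). H2-Aa, the alpha chain of I-A (chromosome 17, 34282744 to 34287823), stood at 6179 CPM, 89.2 and 6324, and H2-Ab1, its beta chain, at 6128, 119.5 and 6238. H2-Eb1, the beta chain of I-E, stood at 4763 CPM in B cells and 5552 CPM in macrophages.

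Class II transcripts were found in nearly every B cell. At 1000 UMIs per cell, Cd74 gave 7 UMIs at the 5th percentile of B cells, 19 at the median and 31.35 at the 95th percentile, and it was found in 99.8% of them. In macrophages it gave 0, 13 and 36.45 UMIs at the same points and was found in 86.96% of cells, and in T cells it was found in 7.57%. H2-Aa was found in 98.5% of B cells, 80.4% of macrophages and 6.85% of T cells.

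The non-classical chains set B cells and macrophages apart. H2-Oa and H2-Ob form H2-O, which restrains peptide loading, and H2-DMa with H2-DMb1 or H2-DMb2 forms H2-M, which catalyses it. H2-Oa stood at 356 CPM in B cells and 0 CPM in macrophages, a ratio of at least 31.5 against a floor of 3 counts. H2-Ob stood at 392 and 7.53 CPM, a ratio of 52.1 (14.3 to 431). H2-DMb2 stood at 1063 and 30.1 CPM, a ratio of 35.3 (17.9 to 81.9), while H2-DMb1 stood at 194 and 377 CPM, a ratio of 0.515 (0.406 to 0.657). The H2-DMb genes are near-identical copies, and no source used here says how reads that match both were counted, so the split between them is uncertain. H2-DMa did not differ by the rule, at 589 and 637 CPM (ratio 0.926, 0.782 to 1.10). Cd86, a costimulatory ligand, stood at 268 CPM in B cells and 86.6 CPM in macrophages (3.09-fold, 2.03 to 4.95), and Ctss, the cathepsin that trims the invariant chain, at 261 and 753 CPM (ratio 0.347, 0.290 to 0.416).

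The promoters of class II genes share the Y box, a short element bound by NF-Y. The letters GATTGG were searched on both strands in the 250 bases before each RefSeq start (build GRCm38.p6). They were found before 8 of 8 class II genes that had an entry, of 10 sought, or 8 of their 9 promoters (88.9%), and before 14.6% of 32851 promoters of all genes. The 120 bases before the start are shown for 4 of them, H2-Aa as a chain held by both cell types and the others as the chains that B cells held above macrophages, with the match in capitals. They lie at chr17:34287824-34287943, minus strand; chr17:34092259-34092378, plus strand; chr17:34238785-34238904, plus strand; and chr17:34145129-34145248, plus strand. The H2-DMb2 start used by RefSeq here lies inside the gene's full span.
H2-Aa: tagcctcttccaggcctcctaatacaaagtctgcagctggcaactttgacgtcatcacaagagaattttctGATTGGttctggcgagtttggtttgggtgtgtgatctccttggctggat
H2-Oa: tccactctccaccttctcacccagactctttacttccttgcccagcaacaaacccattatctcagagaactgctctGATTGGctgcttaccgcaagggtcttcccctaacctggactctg
H2-Ob: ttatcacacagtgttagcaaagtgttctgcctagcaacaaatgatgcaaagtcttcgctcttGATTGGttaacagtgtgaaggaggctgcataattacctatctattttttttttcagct
H2-DMb2: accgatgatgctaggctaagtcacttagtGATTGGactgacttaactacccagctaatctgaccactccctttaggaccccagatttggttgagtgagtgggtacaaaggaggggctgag
The match began 49 bases before the start of H2-Aa, 44 before H2-Oa, 58 before H2-Ob and 91 before H2-DMb2. It stands before H2-Aa, with a B-cell to macrophage ratio of 0.977, as well as before H2-Oa and H2-Ob, which were far higher in B cells.

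Motifs of B-lineage factors were each found once among the genes that led the comparison. Of the 15 genes with the highest lower bound of the ratio, 12 had an entry; ATTTGCAT (the octamer), searched in the same way, was found before Vpreb3 alone, an EBF element (TCCC and GGGA set apart by any 2 bases) before Cd22 alone and CAGGAAGT (an ETS element) before Vpreb3 alone. Each is 1 of 12 promoters (8.33%), and over all promoters the shares were 1.60%, 0.779% and 2.69%. The windows with the octamer of Vpreb3 (chr10:75948180-75948299, plus strand) and the EBF element of Cd22 (chr7:30879029-30879148, minus strand) follow, together with an ETS match of the rule gene Cd79a (chr7:24897377-24897496, plus strand), with the matches in capitals. For Vpreb3 and Cd22 the RefSeq start used lies inside the gene's full span.
Vpreb3: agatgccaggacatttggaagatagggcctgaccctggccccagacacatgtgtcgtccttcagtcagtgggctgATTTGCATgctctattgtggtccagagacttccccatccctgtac
Cd22: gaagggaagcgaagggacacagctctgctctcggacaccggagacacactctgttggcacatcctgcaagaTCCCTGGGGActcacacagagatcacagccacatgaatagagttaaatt
Cd79a: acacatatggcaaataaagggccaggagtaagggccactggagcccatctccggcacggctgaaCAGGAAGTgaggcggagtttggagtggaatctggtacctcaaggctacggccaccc
The matches begin 45, 49 and 56 bases before the start, in that order. A match describes these letters and does not show binding.

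The BAFF receptor was among the genes highest over the other NEC cells, while the survival list as a whole was mixed. Of its 11 genes, 4 were higher, 2 lower and 5 neither (median log2 ratio 0.10), beside 8.22% higher and 19.5% lower over all genes. Tnfrsf13c, the BAFF receptor, stood at 183 CPM (160 to 209) in B cells and 5.76 CPM in the other NEC cells, a ratio of 31.9 (20.7 to 51.3), and was found in 16.7% of B cells against 0.18% of T cells. That ratio was 96.1 against other cells with no UMI of the rule's B-cell genes, 13.97 with a rule of at least 3 UMIs and 6.41 after thinning. Tnfrsf13b, the receptor TACI, was 3.55-fold higher (2.29 to 5.53), and Fcer2a, the low-affinity IgE receptor CD23, 16.2-fold (8.398 to 34.4). Tnfrsf17, the plasma-cell receptor BCMA, had 2 UMIs. Bcl2, which blocks apoptosis, was 2.32-fold lower than in the other NEC cells (1.67 to 3.30), at 33.3 against 77.3 CPM, and 0.254 of the T-cell level (0.177 to 0.355).

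Homing genes differed from T cells in both directions. Of 16 genes, 4 were higher than in T cells, 3 lower and 9 neither (median log2 ratio 0.01). The shares over all genes were 12.3%, 10.2% and 77.6%. Ccr7, the receptor that leads cells into lymph nodes, stood at 506 CPM in B cells, 489.6 CPM in T cells and 3.77 CPM in macrophages, a B-cell to T-cell ratio of 1.03 (0.93 to 1.15). S1pr1, the egress receptor, stood at 161 and 265 CPM (0.606, 0.510 to 0.718). Cxcr5, which leads B cells into follicles, was 13.5-fold higher than in T cells (6.22 to 34.9), Cxcr4 4.18-fold (3.09 to 5.73) and Itga4, the alpha 4 integrin, 6.52-fold (4.09 to 10.9). Itgb7, a gut-homing integrin chain, and Icam1, an adhesion ligand, were among the lower genes, at 0.46 and 0.227 of the T-cell level.

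Follicular genes were the subset list with most members called higher. Of 7 follicular genes, 5 were higher in B cells than in the other NEC cells and 0 lower (median log2 ratio 4.02). Over all genes 8.22% were higher and 19.5% lower. Fcmr was found in 29.5% of B cells (25.8 to 33.3, and 45.1% before thinning), Ccr7 in 41.2% (59.3%) and Vpreb3, a member of the VpreB family, in 8.42% (13.8%). In T cells the shares were 0.36%, 37.7% and 0%. Of 7 marginal zone genes 3 were higher and 3 lower: Cr2, Dtx1, a Notch regulator, and Mzb1, a chaperone for immunoglobulin, were higher, and Cd9, a tetraspanin, was 0.275 of the level of the other cells (0.185 to 0.394). Cr2 also stands in the follicular list, Mzb1 in the plasma cell list and Cd9 in the B-1 list. Dtx1 was found in 8.59% of B cells and 0.721% of T cells.

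Of 8 genes of B-1 cells, 1 was higher and 5 lower, beside 8.22% higher and 19.5% lower over all genes. Bhlhe41, a factor of B-1 cells, was 3.29-fold higher (2.36 to 4.57) and found in 3.70% of B cells, but 1 cell held 22.1% of its UMIs. Cd5, which marks B-1a cells and T cells, had 2 UMIs in the 594 B cells and was found in 0.337% of them and in 2.88% of T cells. Germinal centre genes were nearly absent: Bcl6, which drives that program, had 5 UMIs, and Fas 1 UMI, while Neil1, a DNA repair gene of that list, was 7.28-fold higher (4.77 to 11.3). Of 4 genes of immature cells with any UMI in the library, Il7r, the receptor for IL-7, had 0 UMIs in B cells and Cd93 had 11. Of 5 proliferation genes compared, Hmgb2 was higher, at 956 against 395 CPM, and H2afz lower, at 274 against 1142 CPM. On 5 genes these counts lie close to the shares of all genes. Below the 50-UMI minimum, Mki67, Birc5, Ccnb2 and Tyms had 0 UMIs, and Top2a was found in 1.35% of B cells and 1.44% of T cells.

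**Figure D2:**
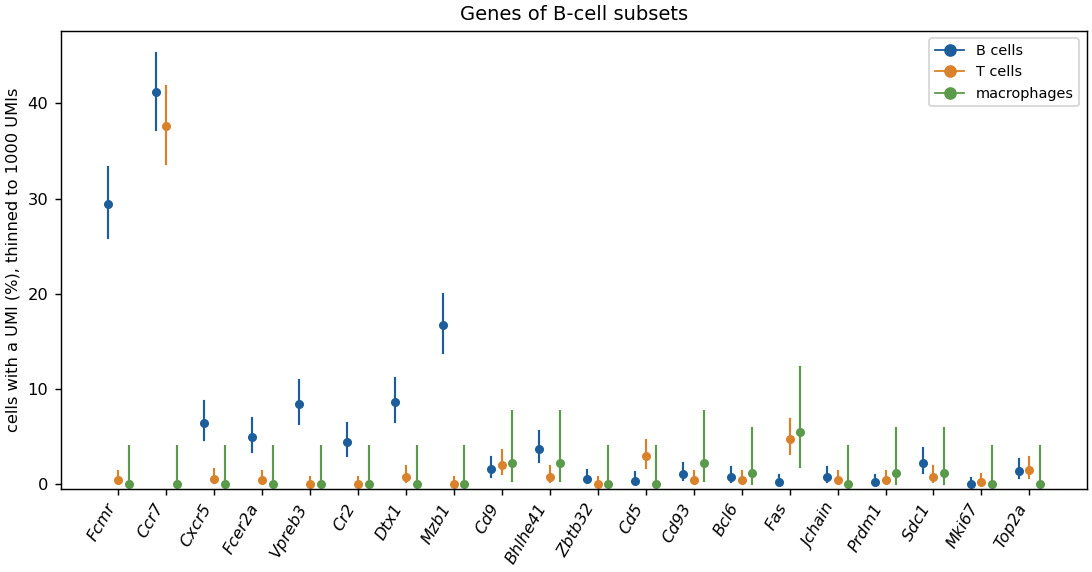
Share of cells with a UMI (%) of 20 genes of B-cell subsets after each cell was thinned to 1000 UMIs, in the 594 B cells and in the T cells and macrophages chosen without regard to B-cell genes; bars are exact binomial 95% intervals. Fcmr is found in 29.5% of B cells and 0.36% of T cells, while Ccr7 is found in 41.2% and 37.7%.

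Antibody-secreting genes rested on a pair of cells. Jchain, which joins IgA or IgM units (chromosome 5, 88519809 to 88527897), had 1125 UMIs, of which 786 lay in 1 cell and 322 in another, 98.5% together. Its ratio to the other cells was 192 (122 to 320) with those cells and 2.94 (1.44 to 5.97) on 17 UMIs without them and without the neutrophil-rich cells described below. These cells held 10 and 24 UMIs of Xbp1, the secretory factor, 24 and 22 of Mzb1, and 1 and 5 of Sdc1, the plasma cell antigen CD138. They held 0 UMIs of Ms4a1, Ebf1 and Pax5 and only 6 and 3 UMIs of Cd74, and they were deep, at 4763 and 4315 UMIs. Among 12 plasma cell genes, 3 were higher in B cells and 1 lower, beside 8.22% higher and 19.5% lower over all genes. Of the 3, Txndc5, a disulfide isomerase, stood at 52.0 CPM against 24.5 CPM and its ratio was 1.51 (1.04 to 2.17) without the 4 cells. Mzb1 was still 16.8-fold higher (12.2 to 23.6) in the remaining B cells than in the other NEC cells.

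Toll-like receptor genes were few. Of 5 genes compared, 2 were higher and 2 lower: Cd180, a B-cell relative of Toll-like receptors, was 5.45-fold higher (3.75 to 8.00) and Ly86, its partner MD-1, 2.13-fold (1.69 to 2.67), while Tlr2 and the adaptor Myd88 were lower. Tlr7, which senses RNA, had 5 UMIs. Of 6 cytokine and secreted genes, 1 was higher and 3 lower, Il6 having 1 UMI in B cells. Over all genes 8.22% were higher and 19.5% lower, and lists of 5 and 6 genes are short for that comparison. Tgfb1, the TGF-beta ligand, stood at 447 CPM (410 to 485) in B cells, 154 CPM in T cells and 249 CPM in macrophages. It was 2.90-fold higher than in T cells (2.501 to 3.37) and 1.87-fold the level of all other cells (1.68 to 2.08), below the 2-fold rule. Il10 had 2 UMIs.

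Several early activation genes were lower in B cells. Of 20 genes, 9 were lower than in the other NEC cells, 3 higher and 8 neither (median log2 ratio -0.63). Over all genes 19.5% were lower and 8.22% higher. Against T cells 5 were lower, 2 higher and 13 neither (median -0.27), where all genes had 10.2% lower and 12.3% higher. Fos, of the AP-1 factor, stood at 173 CPM in B cells, 467 in T cells and 286 in macrophages, and Egr1 at 19.5, 39.6 and 128 CPM. Rgs1, a brake on chemokine receptors, stood at 39.8 CPM in B cells and 267 CPM in T cells. Cd83, a membrane protein that holds class II at the surface, stood at 478 CPM in B cells, 14.6 CPM in T cells and 384 CPM in macrophages. Cd69, which opposes egress, was 2.16-fold higher than in the other cells (1.84 to 2.54) and 1.34-fold the T-cell level (1.12 to 1.60). Of 11 quiescence genes, 2 were higher and 0 lower (median log2 ratio 0.36), Tsc22d3, a glucocorticoid-induced gene, among them at 2.10-fold (1.87 to 2.36). On 11 genes these counts lie close to the shares of all genes.

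Interferon response genes were lower in B cells than in every group set against them. Of 10 genes, 9 were lower than in the other NEC cells and 0 higher (median log2 ratio -1.62), 6 were lower than in T cells (median -1.53) and 8 lower than in macrophages (median -2.32), where all genes had medians of -0.04, 0.04 and 0.19. The shares of all genes called lower in these comparisons were 19.5%, 10.2% and 16.8%. Isg15, a ubiquitin-like protein, stood at 11.4 CPM (6.21 to 19.1) in B cells, 34.4 CPM in T cells and 158 CPM in macrophages, and 1 B cell held 57.1% of its UMIs. Ifi27l2a stood at 296, 522 and 1194 CPM in the same order. Irf7 was the exception, at 0.595 of the level of the other cells (0.397 to 0.866).

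Other genes with the highest lower bounds were Gm43603, for which no name beyond its identifier is used here, and Crisp3, a cysteine-rich secretory protein gene, at 22.8-fold (16.5 to 32.1) and 30.01-fold (16.5 to 59.8). The 15 genes with the lowest upper bounds were those of the other cell types. Lpl, lipoprotein lipase, and Col1a2, a fibrillar collagen, had 0 UMIs in B cells and were at least 53.9-fold and 48.3-fold lower. Of lymphocyte genes, Cd8b1, Il7r, Bcl11b, Klk8 and Rora had 0 UMIs, and Ccl5 and Ramp3 were 44.1-fold (28.2 to 73.3) and 61.5-fold (26.3 to 190) lower. The others were the stromal genes Igfbp6 and Clec3b with 1 UMI each (ratios 0.00545, 0.000138 to 0.0305, and 0.00704, 0.000178 to 0.0394), the chemokine gene Ccl7, and the macrophage genes Retnla, Lyz1 and Lyz2.

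The macrophage genes among these stood near their T-cell level in B cells. Retnla stood at 133 CPM in B cells, 229.7 CPM in T cells and 39885 CPM in macrophages, and it was found in 10.9% of B cells and 9.01% of T cells. Against T cells alone, Retnla (ratio 0.58), Lyz1 (0.886), Lyz2 (0.754) and Clec3b (0.199, on 1 UMI) were no longer called lower; Lyz1 and Lyz2 are near-identical copies and their split is uncertain. Summed over the whole lists, 10 macrophage markers stood at 116 CPM in B cells and 3732 CPM in the other NEC cells, 9 T-cell markers at 31.7 and 1275 CPM with 6 at 0, of which 3 by the rule, and 6 fibroblast markers at 16.2 and 886 CPM with Col1a2 and Lum at 0. The 7 markers of NK or innate lymphoid cells stood at 104 and 871 CPM with 4 at 0, among them Ncr1 and Nkg7. The 8 dendritic cell markers stood at 516 and 474 CPM with 6 at 0, and Ccr7 supplied 506 CPM of the former.

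The genes that varied most between B cells included several held by a few cells. Over 1969 genes with a mean of at least 0.05 UMIs at 1000 UMIs per cell, the median variance-to-mean ratio was 1.04, close to the value of 1 that counting alone gives. The 12 highest were Jchain at 144, the neutrophil genes S100a8 at 83.7 and S100a9 at 55.0, Wfdc17 at 11.2, Actb at 9.05, Malat1 at 6.19, Mt2 at 6.18, Fth1 at 4.9995, Lyz2 at 4.22, Mt1 at 4.05, S100a6 at 3.32 and Tyrobp at 2.97. The top 2 cells held 4.69% of the Actb UMIs, 1.55% of those of Malat1 and 2.95% of those of Fth1, so these genes were not those of a few cells. A pair of cells held 98.3% of the 536 S100a8 UMIs, with 436 and 91 each, and 96.8% of those of S100a9. They also held 48 and 27 UMIs of Retnlg, a neutrophil gene, and 2 and 3 of Cd79a. The 4 neutrophil markers summed to 803 CPM in B cells and 315 CPM in the other NEC cells. Without this pair and the Jchain pair S100a8 stood at 7.401 CPM.

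Other single cells had transcripts of further types. A single cell held 45 of the 112 Lyz2 UMIs, and a single cell held 161 of the 184 UMIs of 4 epithelial markers. Metallothioneins, which bind metals, were also uneven: 1 cell held 106 of the 279 Mt2 UMIs and 1 cell 104 of the 563 Mt1 UMIs. Whether these are mixed droplets was not tested; Scrublet, a doublet caller, called 9 of the 1806 NEC cells and 0 of the 594 B cells, which were all kept.

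**Figure D3:**
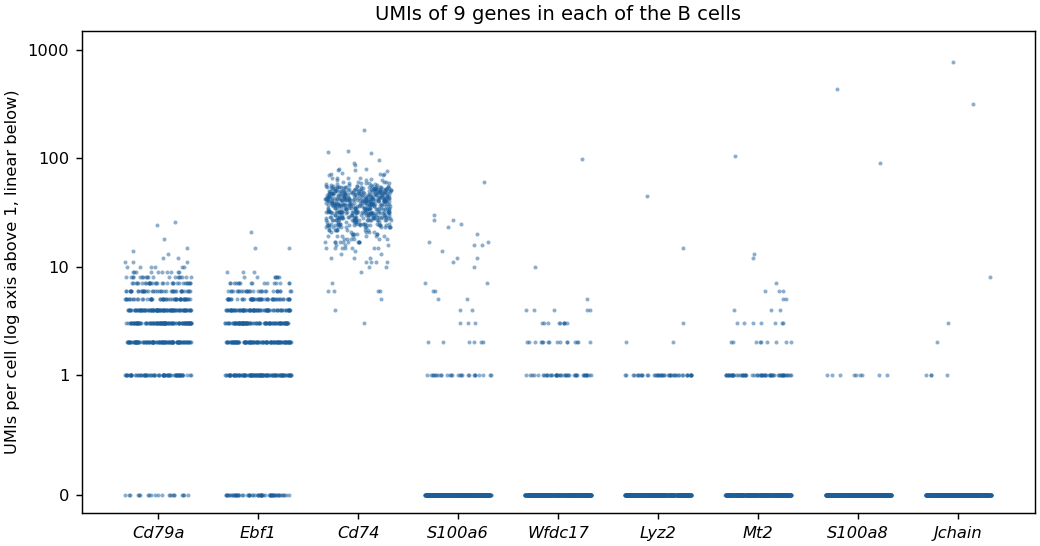
UMIs of 9 genes (log axis above 1, linear below) in each of the 594 B cells; each point is a cell, spread sideways. Cd79a, Ebf1 and Cd74 are spread over most cells, whereas 2 cells hold 98.5% of the Jchain UMIs and another 2 hold 98.3% of the S100a8 UMIs.

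A further axis lay across several cells. S100a6, a calcium-binding protein gene, was found after thinning in 38 of the 590 B cells left without those 4 (6.44%), a split chosen after its values were seen. These cells were deeper, with a median of 3528 UMIs against 1759 in the other 552. Of 3507 genes with at least 30 UMIs over the 590 cells, a lower minimum than the 50 used elsewhere, 124 were higher (3.54%) and 267 lower (7.61%) in them. The structural genes Vim and Lmna stood at 1077 and 853 CPM, against 189 and 154 CPM in the other B cells, ratios of 5.69 (4.61 to 7.003) and 5.52 (4.37 to 6.98). Crip1, a LIM protein gene, stood at 3282 against 821 CPM (3.9997-fold, 3.58 to 4.46) and Cd44, the hyaluronan receptor, at 405 against 76.7 CPM (5.27-fold, 3.75 to 7.401). Odc1, the first enzyme of polyamine synthesis, stood at 2429 against 457 CPM.

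Some of these genes were sparse in the other B cells. Fgl2, a fibrinogen-like protein gene, was found before thinning in 39.5% of the 38 cells and 0.725% of the other 552, Lgals1, a galectin, in 42.1% and 4.35%, and Csf2rb, a cytokine receptor chain, in 34.2% and 1.09%. These shares are before thinning and the 38 cells are the deeper ones. Cells with transcripts of other types stayed in this split. The cell rich in epithelial markers, with 68 UMIs of Krt18, held 5 S100a6 UMIs before thinning. Slpi had 39 UMIs in the 38 cells, all in 1 cell. Bhlhe41 and Cd9 were 3.76-fold (2.27 to 6.10) and 4.64-fold (2.02 to 10.3) higher, but 1 cell held 60.7% of the Bhlhe41 UMIs. Zcwpw1, of the B-1 list, stood at 199 against 3.79 CPM, and 1 of the 7 cells that held it had 37.5% of its UMIs. Spn and Cd5, also of that list, met the rule in neither direction. Spn had 1 UMI against 9 (ratio 0.730, 0.0167 to 5.27) and Cd5 had 1 against 1 (6.57, 0.0837 to 516).

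The same cells were lower for follicular genes and class II. Cr2 had 1 UMI in them (ratio 0.131, 0.00326 to 0.767) and Fcer2a 2 UMIs (0.248, 0.0293 to 0.941). Fcmr stood at 0.443 of the level of the other B cells (0.286 to 0.659), Ccr7 at 0.466 (0.331 to 0.640) and Klf2 at 0.409 (0.310 to 0.530). H2-Ab1 stood at 2970.4 against 6688 CPM (0.444, 0.404 to 0.487), H2-Aa at 3780 against 6620 CPM (0.571, 0.525 to 0.620) and Cd74 at 12641 against 19371 CPM (0.653, 0.623 to 0.683). Apoe, an apolipoprotein gene, stood at 131 against 640.5 CPM. Rule genes differed less: Ms4a1 stood at 492 against 462 CPM (1.06, 0.828 to 1.35) and Cd79a at 1563 against 1875 CPM (0.834, 0.728 to 0.951). Of macrophage markers, Csf1r, Mrc1, Cd14, Fcgr1 and Adgre1 had 0 UMIs in these 38 cells and Cd68 had 1. Tyrobp, a myeloid and NK adaptor, was 2.61-fold higher in them (1.57 to 4.21) and found before thinning in 34.2% against 7.79% of cells. Itgam, a myeloid integrin gene that also stands in the B-1 list, had 3 UMIs against 1 (19.7-fold, 1.58 to 1035). Lyz2 stood at 311 against 56.8 CPM, with 45 of its 50 UMIs in 1 cell.

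**Figure D4:**
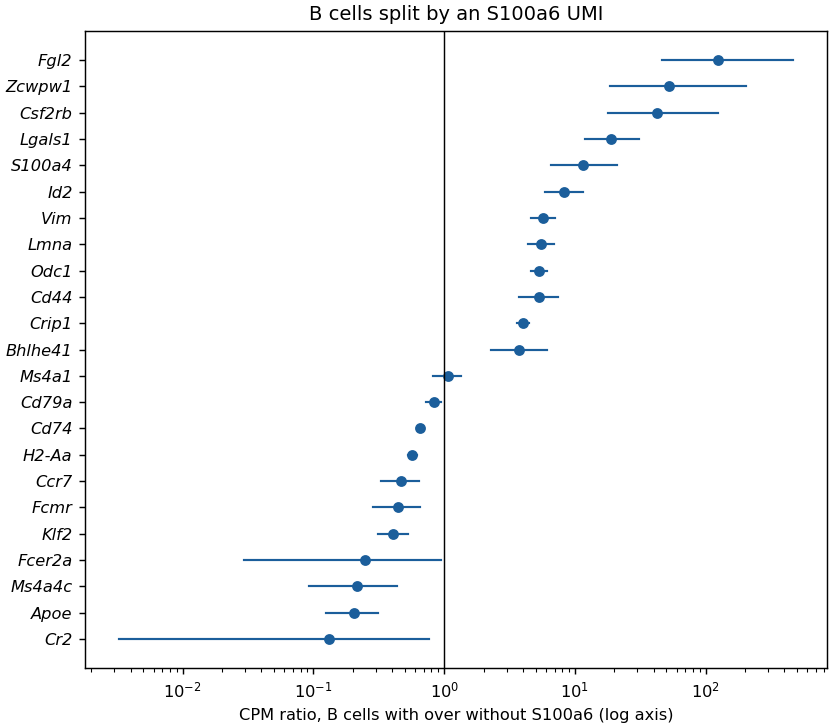
CPM ratio (log axis) of the 38 B cells with an S100a6 UMI after thinning over the 552 without, for 23 genes chosen after their values were seen; bars are exact 95% counting intervals and the line marks 1. Vim and Lmna lie above 5, Ms4a1 near 1, and Cr2 at 0.131 on 1 UMI.

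Depth and this axis moved together. The 590 cells were split into the 295 deeper and 295 shallower ones (medians of 2116 and 1562 UMIs). Of 2319 genes with at least 50 UMIs over these cells, 33 were higher in the deeper cells (1.42%) and 20 lower (0.862%). S100a6 was 14.1-fold higher there, Cd44 3.74-fold, Lmna 3.36-fold, Vim 2.71-fold, Spib 2.495-fold and Crip1 2.04-fold. The part of depth in the S100a6 split was not tested.

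In the TEC library, 11 of 1000 cells met the same rule (1.10%, 0.55 to 1.96), and 3 did after thinning (0.30%, 0.0619 to 0.874), against 452 of 1806 NEC cells after thinning (25.03%, 23.0 to 27.1). The shallowest TEC cell held 6376 UMIs, a depth that 12 of the 594 NEC B cells reached (2.02%). At that depth or more, B cells were 12 of 87 NEC cells (13.8%, 7.34 to 22.9). The depth gap can set these shares, and the difference between the libraries has no replicate check. Of the 11 TEC cells, 3 held at least 20 UMIs of Cd79a, Cd79b and Ms4a1 and 8 held 5 or fewer, at a median of 9691 UMIs per cell.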

How the data were processed

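Per the labels, cells were sorted for ZSGreen and prepared with the 10x single-cell 3' kit. The tools named in the submitters' processing notes were STAR 2.5.1b, Cell Ranger 2.0.2 and Seurat, with build mm10, and no settings were read from them. The table deposited by the authors holds raw UMI counts for 13774 genes, with no normalization. Columns named "control" were taken as NEC on that word alone, and "tumor" as TEC. The libraries shared 2 cell barcodes, and none of these cells was a B cell. No cell of the deposited table was filtered out here, and its shallowest cells held 1157 UMIs in NEC and 6376 UMIs in TEC. The table may therefore not hold every sorted cell.

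Counts were summed over cells and scaled to CPM (Python 3.11.15, numpy 2.4.6, pandas 2.3.3, scipy 1.17.1, matplotlib 3.10.9). Ratios have exact Clopper-Pearson intervals conditional on the gene's total, CPM exact Poisson and shares exact binomial ones. A sum of 0 was set to 3 counts for a bound. The ratio rule was tried on simulated sums with counting error only, which cannot show how it fares for genes held by a few cells. UMIs remove PCR copies; cells of 1 library are not replicates. Doublets were called with Scrublet in scanpy 1.11.5 and kept.

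The B cells and gene lists were chosen with earlier results of these data known. Beyond list members, named genes were those with the highest lower bound of the ratio (15 genes) and those whose upper bound was lowest (15 genes), among genes past the fold and leaving out mitochondrial, ribosomal and hemoglobin genes and those of the rule, and 12 with the largest variance-to-mean ratio. Genes named for the S100a6 split were chosen after their values were seen. Promoters are RefSeq's, build GRCm38.p6. Light-chain shares were planned, but the immunoglobulin constant genes were not analysed here. Other settings were the rule's thresholds, cell filters, the reference cells, the scaling, the gene filter and thinning. Some genes of the lists are not reported here.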

Additional observations from a re-analysis of the deposited data

How the results depend on the processing

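Among the values recomputed under 16 other settings, and the class II median against macrophages alone, none reversed; in these settings 13 values of named genes could not be given. The number of B cells (594) was 513 with a rule of at least 3 UMIs, 653 with at least 1, 196 among cells with at least 2000 UMIs and 452 after thinning to 1000 UMIs. The count of higher genes (542) was 942 with no gene filter and 280 after thinning, where 3444 genes were compared. The count of lower genes (1283) was 667 against T cells alone and 564 after thinning. The class II median log2 ratio (1.95) was 1.80 with at least 3 UMIs, 1.71 among cells with at least 2000 UMIs, 5.07 against T cells alone, 2.07 against cells with no UMI of the rule's B-cell genes, 2.11 as the mean of per-cell CPM, 1.87 with the 20-UMI gene filter and with none, and 1.76 after thinning; a comparison with macrophages alone, added after seeing the data, gave 0.14, where all genes had a median of 0.19. Of 467 values for the 30 named genes, 462 kept their call and 5 lost it: Retnla, Lyz1, Lyz2 and Clec3b against T cells alone, and Jchain after thinning (1.22), where 1 of its 2 rich cells no longer met the rule. The folds themselves moved more than the calls: of the 15 genes named as higher, 14 changed by over 1.5 times against cells with no UMI of the rule's B-cell genes, 14 against T cells alone, 10 as the mean of per-cell CPM, 9 with at least 1 UMI, 8 with at least 3 UMIs, 8 of 12 among cells with at least 2000 UMIs, and all 13 that could be compared after thinning. The TMM-type scaling had a log2 factor of -0.01. Leaving out the 4 cells rich in Jchain or S100a8, also added later, gave 545 higher and 1296 lower genes. No paired analysis was possible because each group has 1 library. Light-chain shares were not run. Depth limits the shares of cells: Pax5 was found in 17.5% of B cells before thinning and in 7.24% after it.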
